A study of Mus musculus with 37 samples.

Results

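Glo1 encodes glyoxalase 1, and the BXD mouse strains were divided here into strains with a high and strains with a low Glo1 level in brown adipose tissue. These strains descend from a cross of C57BL/6J with DBA/2J followed by inbreeding, so each is homozygous for a mosaic of both parental genomes. DBA/2J carries a duplication that spans Glo1, and C57BL/6J does not. The sides were chosen by the measured Glo1 level itself. A strain above the midpoint of the C57BL/6J and DBA/2J arrays was called high, and a strain below it was called low. This placed 8 of the 35 BXD strains on the high side and 27 on the low side. No strain genotypes were used here, so a side is a measured level and not a genotype.

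Both sides were treated alike. All mice were males of 29 weeks on a chow diet, fasted overnight before the tissue was taken. RNA of about 5 mice was pooled for each strain and run on 1 Affymetrix Mouse Gene 2.0 array, so each strain gave 1 value, the spread within a strain was not measured, and the strains served as the replicates of a side. Each of the 2 parents likewise had 1 array. Levels are given in the rescaled units of the deposited table, in which every array has a mean of 8 and an SD of 2. The log base before rescaling is not given in the sources used here, so the fold values below, 2 raised to the difference, are nominal.

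GLO1 converts the adduct that methylglyoxal, a reactive by-product of glycolysis, forms with glutathione. HAGH (glyoxalase 2) then releases lactate and returns the glutathione. Methylglyoxal that escapes this pathway modifies proteins and gives rise to advanced glycation end products. In recombinant inbred strains a gene keeps the parental alleles of its neighbours over long stretches of its chromosome, and genes on other chromosomes are inherited apart from it.

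Glo1 ranged over more than a full unit among the BXD strains. The 8 high strains had a lowest level of 10.75 in BXD69, a median of 10.98 and a highest level of 11.16 in BXD56. The 27 low strains had a lowest level of 9.74 in BXD66, a median of 10.22 and a highest level of 10.62 in BXD101. C57BL/6J stood at 10.28 and DBA/2J at 10.96, which put the midpoint at 10.62. The mean was 10.96 ± 0.13 (SD) on the high side and 10.21 ± 0.20 (SD) on the low side, a difference of 0.75 units and a nominal 1.69-fold. These values chose the sides and carry no test.

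The strains nearest the midpoint lay at unequal distances from it. BXD101 was 0.003 units below the midpoint, and BXD69, the nearest high strain, was 0.125 units above it. The next low strains were BXD62 at 10.57 and BXD70 at 10.45. With each array centred on its median BXD101 moved to 0.012 units above its midpoint and was a ninth high strain, and with quantile normalization it stayed 0.010 units below. The gap between BXD101 and BXD69 was 0.128 units, and the widest gap among neighbouring strains, 0.172 units, lay lower, between BXD96 and BXD61.

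**Figure D1:**
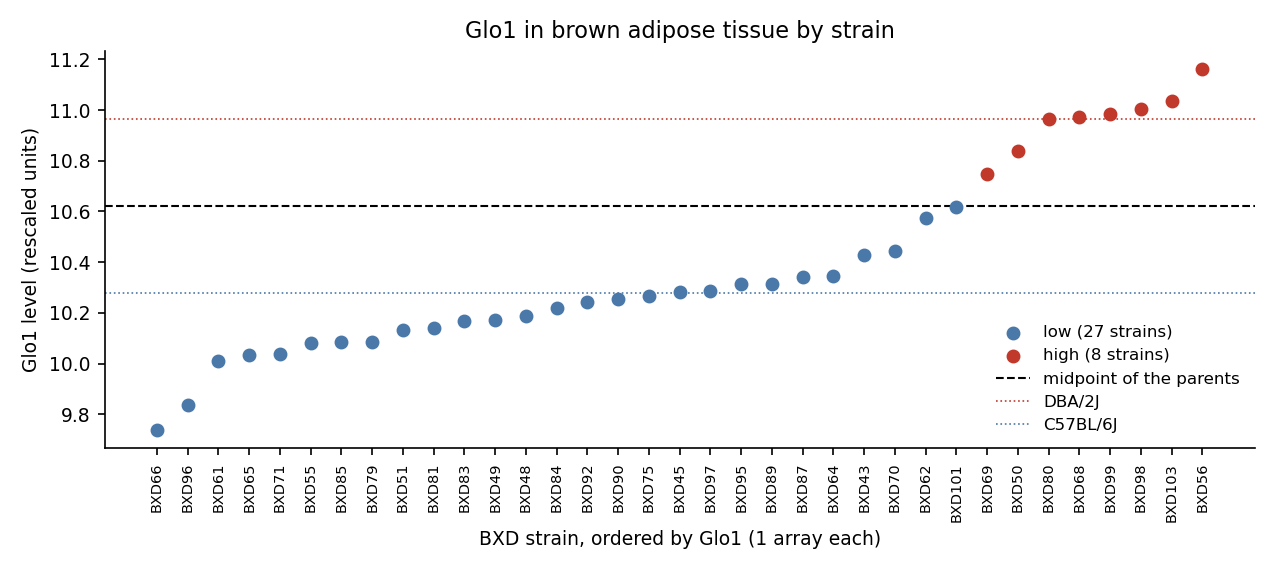
Glo1 level in rescaled units (vertical axis) for the 35 BXD strains ordered by level (horizontal axis), with 1 array per strain. The 8 high strains (red) run from 10.75 to 11.16 and the 27 low strains (blue) from 9.74 to 10.62, BXD101 sits almost on the dashed midpoint, and dotted lines mark both parents.

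Across the array the split was followed by few differences. Of 41154 probe sets other than that of Glo1, 8 passed an adjusted p under 0.05 with limma (0.0194%), 5 of them higher and 3 lower in the high strains. At an unadjusted p under 0.05, 2361 probe sets passed. Counted by gene, with the brightest probe set standing for each, 5 of 24618 genes passed (0.0203%), and 1366 had an unadjusted p under 0.05 (5.55%). No gene other than Glo1 separated the sides without overlap (0 of 24618, 0%). Of the 40 probe sets with the lowest p, 25 were placed on a chromosome by name, and 19 of these were on chromosome 17, the chromosome of Glo1, which held 4.66% of the genes tested.

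The genes on either side of Glo1 were both higher in the high strains. Btbd9, which encodes a BTB domain protein, comes just before Glo1 in the RefSeq gene order (GRCm38.p6), and Dnah8, a dynein heavy chain of sperm flagella and cilia, comes just after it. Btbd9 had a lowest level of 9.67, a median of 9.79 and a highest level of 9.95 in the 8 high strains, against 9.05, 9.46 and 9.70 in the 27 low strains. A single low strain lay above the lowest high strain. The difference of 0.37 units (SE 0.06) had an adjusted p of 0.00265 with limma and was a nominal 1.29-fold. The Btbd9 level was 9.03 in C57BL/6J and 9.88 in DBA/2J.

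Dnah8 was dim. Its mean over the BXD strains, 6.77, was below 7.94, the level under which 95% of the olfactory receptor probe sets lay, and those receptors served here as the array's background. Its levels in the high strains were 6.80, 7.01 and 7.35 (lowest, median, highest), and in the low strains 6.48, 6.68 and 7.22. The groups overlapped by 3 low strains that stood above the lowest high strain. The difference was 0.34 units (SE 0.06, adjusted p = 0.0297 with limma), and DBA/2J exceeded C57BL/6J by 0.16 units. Leaving out any of BXD68, BXD69, BXD80, BXD99 and BXD103 ended the Dnah8 call, with an adjusted p of up to 0.118.

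The remaining near neighbours did not pass. Among the 20 protein-coding genes on each side of Glo1, 39 of 40 had a probe set, 28 of these were above background, and Btbd9 and Dnah8 were the 2 that passed. At an unadjusted p under 0.05 there were 8 of the 39, or 20.5%, against the 5.55% of all genes given above. Glp1r, the receptor for glucagon-like peptide 1 and the second gene after Glo1, was below background and had medians of 7.28 in the high and 7.30 in the low strains. Its difference was 0.00 units, with an interval of 2 SE to either side from -0.13 to 0.14 units.

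Zfand3, a zinc finger gene that lies before Btbd9, is expressed at a high level in this tissue. It had levels of 12.46, 12.61 and 12.75 in the high strains and 12.31, 12.54 and 12.65 in the low strains, and the sides overlapped widely. Its difference of 0.12 units did not pass (adjusted p = 0.741 with limma). Pim1, a serine/threonine kinase induced by cytokines, had levels of 9.51, 10.21 and 10.72 in the high strains against 9.90, 11.04 and 11.90 in the low strains. All 27 low strains stood above the lowest high strain and 8 of them stood below the highest. The Pim1 difference was -0.84 units (SE 0.20), with an adjusted p of 0.253, and DBA/2J lay 0.93 units below C57BL/6J. A dimmer Pim1 probe set, also above background, differed by -0.25 units (adjusted p = 0.567 with limma). Its DBA/2J minus C57BL/6J value was -0.07 units.

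Sik1, a salt-inducible kinase, differed by -0.66 units with an adjusted p of 0.541, and the sides overlapped by 13 low strains. The others with an unadjusted p under 0.05 were Tmem217 (-0.23), Cpne5 (-0.26) and Abcg1 (-0.23 units), the last a cholesterol exporter. Tmem217 and Cpne5, like Dnah8, were below background. The 31 neighbours with a larger p differed by -0.17 to 0.31 units. They include Cdkn1a, the p21 inhibitor of cyclin-dependent kinases (-0.11 units), Cbs, which makes cystathionine from homocysteine (-0.14 units), and the trefoil factors Tff1, Tff2 and Tff3 (0.03, 0.07 and 0.03 units). Of all 39 neighbours, 23 differed in the same direction as the parents (59.0%), against 54.1% of the genes of chromosome 17 and 50.3% of all genes.

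**Figure D2:**
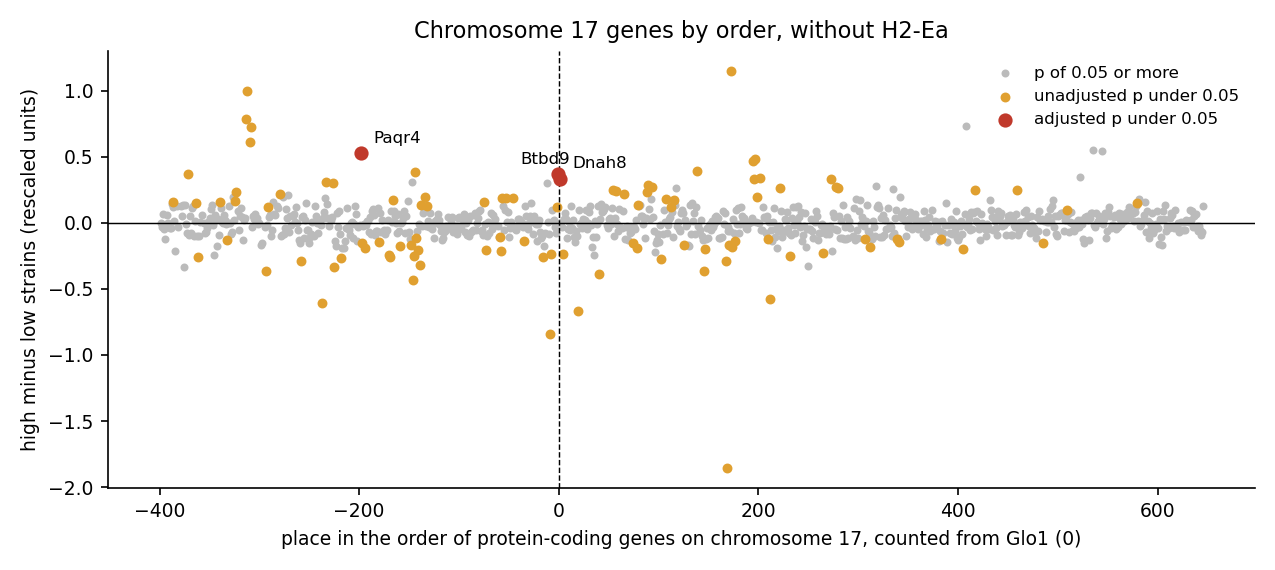
Difference between the high and low strains in rescaled units (vertical axis) for genes of chromosome 17 by their place among its protein-coding genes, counted from Glo1 at 0 (horizontal axis). Btbd9 and Dnah8 flank the dashed line at Glo1, Paqr4 stands at -198, orange points had an unadjusted p under 0.05, and H2-Ea, which RefSeq does not list as protein-coding, is not drawn.

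Farther along chromosome 17, Paqr4, a member of the progestin and adipoQ receptor family, had the lowest p of all probe sets although 197 genes separate it from Glo1. Its levels were 9.81, 10.07 and 10.38 in the high strains and 9.11, 9.58 and 9.87 in the low strains. The sides overlapped by 4 low strains. The difference was 0.53 units (SE 0.08, adjusted p = 0.00265 with limma), a nominal 1.44-fold. C57BL/6J stood at 9.28 and DBA/2J at 9.77.

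H2-Ea, listed in the table as H2-Ea-ps, had the largest difference of the probe sets that passed. It encodes the alpha chain of the MHC class II molecule I-E, which mice of the C57BL/6 haplotype do not make. In the high strains 7 levels lay between 11.95 and 13.62, and BXD98 lay at 8.06. The low strains had a lowest level of 6.66, a median of 7.58 and a highest level of 12.98. BXD62, BXD70, BXD79 and BXD87 were the low strains with a high H2-Ea level, from 11.73 to 12.98. The difference was 3.75 units (SE 0.70, adjusted p = 0.0297 with limma), and the parents differed by 4.59 units in the same direction. The call was lost when any of BXD50, BXD56, BXD68, BXD69, BXD80, BXD99 and BXD103 was left out, with an adjusted p of up to 0.118.

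The remaining chromosome 17 probe set that passed belongs to 9030025P20Rik, a RIKEN locus with 2 probe sets. The dimmer probe set, whose mean of 7.50 was below background, had levels of 8.17, 8.54 and 8.63 in the high strains and 6.36, 6.91 and 8.73 in the low strains. The high strains were close together and the low strains were spread over the whole range. The difference was 1.25 units (SE 0.23, adjusted p = 0.0297 with limma), and it was lost without BXD56, BXD68, BXD69, BXD80, BXD99 or BXD103. The brighter probe set differed by 1.002 units with an adjusted p of 0.150, so the gene is not among the 5 genes that passed.

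Chosen after their values were seen, the transcripts just outside the threshold were also on chromosome 17. D330041H03Rik, which was below background, differed by 0.62 units (adjusted p = 0.0582 with limma). Cdsn, the corneodesmosin gene, differed by 1.15 units (adjusted p = 0.0755 with limma). H2-Q10, a class I gene secreted mainly by liver, had a median of 10.53 in the high and 12.84 in the low strains and differed by -1.86 units (SE 0.38, adjusted p = 0.0755). The sides overlapped, with BXD98 the highest of the high strains at 13.59. The part of liver transcripts in the H2-Q10 difference was not tested, and the liver marker levels of both sides are given with the other cell types.

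**Figure D3:**
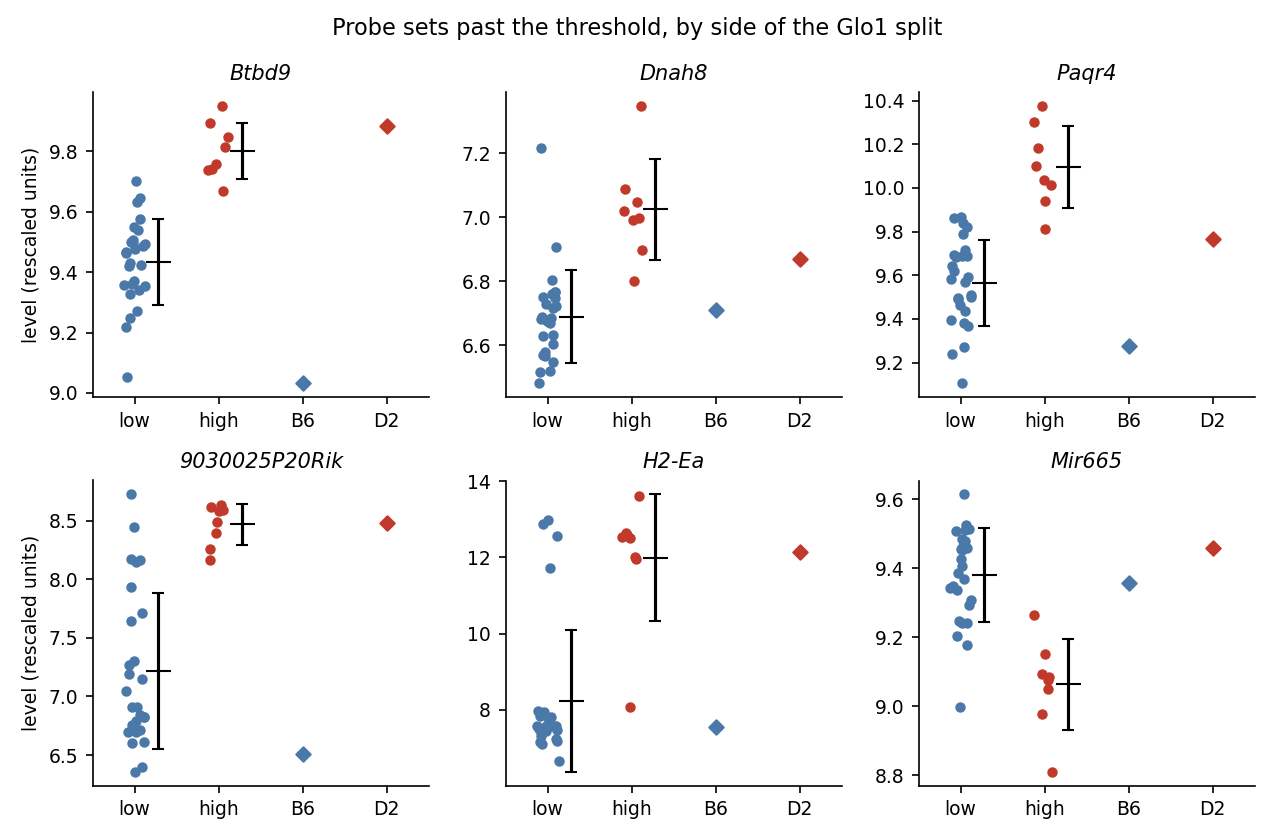
Levels in rescaled units (vertical axes) of 6 named probe sets that passed the threshold, in the 27 low and 8 high strains (1 point per strain, bars are mean ± SD) and in C57BL/6J (B6) and DBA/2J (D2), with 1 array each. The sides overlap in every panel, BXD98 is the low point at 8.06 among the high strains for H2-Ea, and Mir665 is the panel in which the high strains are lower; the 9030025P20Rik panel shows its dimmer probe set.

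Over the whole of chromosome 17, 123 of 1148 genes had an unadjusted p under 0.05 (10.7%), against 1170 of 22293 genes on other chromosomes (5.25%). This was the largest share of any chromosome, and the next was 6.38% on chromosome 14. The share changed with distance from Glo1, counted in protein-coding genes to either side. It was 20.5% within 20 genes, 11.7% beyond these up to 100 genes and 18.8% beyond 100 up to 200 genes. Farther out it was 11.7% before Glo1, where 399 genes have a place, 7.29% after Glo1 up to an equal distance, and 2.52% (6 of 238) beyond that.

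The parental arrays differed in the same direction for 87 of those 123 genes (70.7%), and for 48.4% of such genes on other chromosomes. Single chromosomes varied, with 67.5% on chromosome 16 (27 of 40) and 66.1% on chromosome 8 (37 of 56). Chromosomes 3 and 15 had 35.5% and 36.0%. On chromosome 17, in the stretch beyond 100 and up to 200 genes, 30 of 36 matched (83.3%). Dnah8 and Btbd9, which lie next to Glo1 and not in that stretch, were both among the 87 genes that matched. With 1 array per parent these shares have no replicate check. The DBA/2J array also carried liver transcripts that C57BL/6J carried less of. Its Alb level (serum albumin) was 13.93 against 8.76, and its Apoa1 level was 10.81 against 8.23. Their part in the DBA/2J levels, that of Glo1 included, was not tested.

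**Figure D4:**
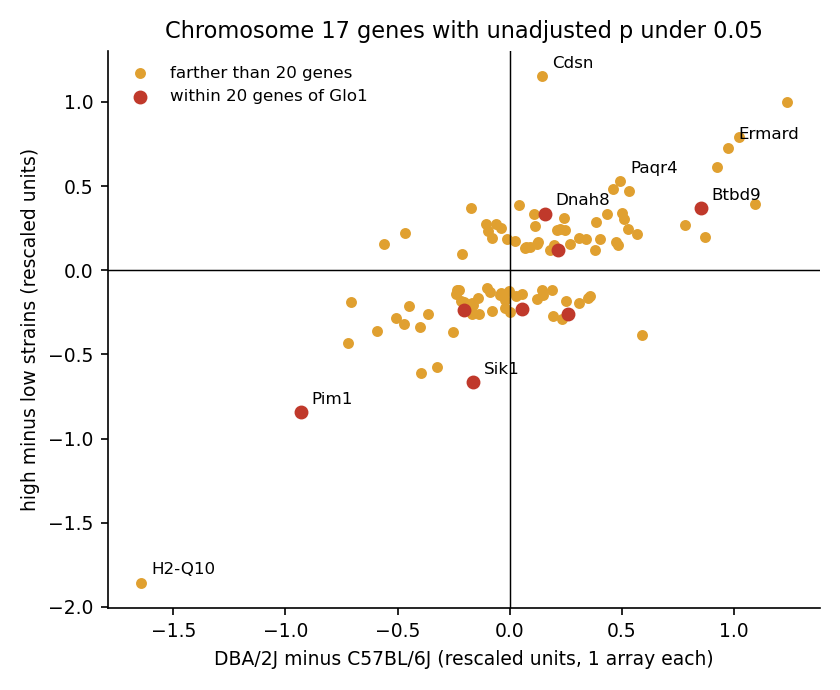
Difference between the high and low strains (vertical axis) against DBA/2J minus C57BL/6J (horizontal axis), both in rescaled units, for the genes of chromosome 17 with an unadjusted p under 0.05 that have a place in the protein-coding order. Btbd9, Dnah8 and Paqr4 lie in the upper right and Pim1, Sik1 and H2-Q10 in the lower left, where both differences have the same sign.

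Read strain by strain, the chromosome 17 probe sets that passed, and Pim1, which did not, were not all on the parental side of Glo1 in every strain. A strain was placed on the DBA/2J side of a gene when its level was past the midpoint of the parents toward DBA/2J. All 8 high strains were on that side for Btbd9, Dnah8, Paqr4, Pim1 and the dimmer 9030025P20Rik probe set, and 7 of 8 for H2-Ea. Of the 27 low strains, 14 were on it for Btbd9, 15 for Paqr4, 12 for Pim1, 8 for 9030025P20Rik, 4 for H2-Ea and 3 for Dnah8, the last being BXD45, BXD49 and BXD62. These counts are a description, since most of the genes were picked for their difference between the sides.

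Of the low strains nearest the midpoint, BXD62 was on the DBA/2J side for all 6 of these genes, the sole low strain that was, with levels of 9.63 for Btbd9, 7.22 for Dnah8 and 12.98 for H2-Ea. BXD101 was on the C57BL/6J side for all 6, with levels of 9.37 for Btbd9 and 6.72 for Dnah8, and its Paqr4 level of 9.11 was the lowest of all strains. For Zfand3, which is not among the 6, BXD101 (12.62) and BXD62 (12.65) were the 2 low strains on the DBA/2J side. The other 25 low strains were on the DBA/2J side for at most 4 of the 6 genes. With BXD62 left out, 18 probe sets passed in place of 8. With BXD101 moved to the high side, an alternative added after the data were seen, Mir665 alone passed, and the adjusted p rose to 0.117 for Btbd9, 0.223 for Dnah8 and 0.279 for Paqr4. With the arrays centred on their medians and the sides set again from the centred Glo1 levels, which also puts BXD101 on the high side and was likewise added, Mir665 alone passed, and the adjusted p was 0.0849 for Btbd9, 0.0860 for Dnah8 and 0.244 for Paqr4.

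On other chromosomes, 1 named gene passed of 22293, Mir665, the gene of a microRNA in the imprinted Dlk1-Dio3 cluster of chromosome 12. Its mature products are shown because it is the single unlinked gene that passed. Both are given from RefSeq (GRCm38.p6), 5′ to 3′, with the seed (bases 2 to 8) in capitals, and the seeds of the arms differ.
mmu-miR-665-5p: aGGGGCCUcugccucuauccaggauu
mmu-miR-665-3p: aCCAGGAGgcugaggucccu
The probe set is named for the gene and cannot tell the arms or the precursor apart.

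Mir665 was lower in the high strains, with levels of 8.81, 9.08 and 9.26 against 9.00, 9.41 and 9.61 in the low strains. The sides overlapped by 6 low strains. The difference was -0.32 units (SE 0.06, adjusted p = 0.0297 with limma), and the parents differed by 0.10 units in the opposite direction. The call was lost when any of BXD56, BXD68, BXD80, BXD99 and BXD103 was left out, with an adjusted p of up to 0.118. The other probe sets that passed, 17203549 (-0.63 units, adjusted p = 0.0392) and 17206057 (-0.82 units, adjusted p = 0.0496), carry no gene name in the table and were placed on no chromosome here.

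Of 17 genes for methylglyoxal detoxification, the pathway that GLO1 belongs to, 0 passed with limma. In the list 1 gene had an unadjusted p under 0.05 (5.88%, beside 5.55% of all genes), so the list's share was near the background. Since 0.0203% of all genes passed, a count of 0 in a list of this size says little about the pathway. The list's median difference was -0.01 units, beside a median of 0.00 over all genes. The gene with the unadjusted p under 0.05 was Hagh, the second enzyme of the pathway, which is itself on chromosome 17 in place -143. Its levels were 10.85, 11.18 and 11.30 in the high strains and 11.02, 11.28 and 11.46 in the low strains, which overlapped widely. The Hagh difference was -0.12 units (SE 0.05, adjusted p = 0.830 with limma), and DBA/2J lay 0.24 units below C57BL/6J.

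The related glyoxalase domain genes Glod4 and Glod5 differed by 0.02 and 0.08 units, and Haghl, a relative of Hagh, by -0.03 units. Park7 (DJ-1), described as a glutathione-independent glyoxalase, differed by -0.01 units. Among the reductase and dehydrogenase genes that clear methylglyoxal by other routes, Aldh1a1 differed by 0.17, Akr1b7 by 0.16, Akr1b3 (aldose reductase) by -0.13, Aldh9a1 by -0.10 and Aldh2 by -0.04 units, and none had an unadjusted p under 0.05. Fn3k, a kinase that removes sugar adducts from proteins, differed by 0.01 units.

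The lists for glutathione, NRF2, glycolysis and glycation receptors are likewise read against these shares. Of 16 genes for its synthesis and recycling 0 passed and 0 had an unadjusted p under 0.05, with a median of -0.03 units, and Gclc, the catalytic subunit of the rate-limiting enzyme, differed by -0.07 and Gsr, glutathione reductase, by -0.03 units. Of 17 targets of NRF2, the factor that induces antioxidant genes, 0 passed and 0 had an unadjusted p under 0.05 (median -0.01 units), with Nqo1 at 0.10 units. Of 17 glycolysis genes, which stand upstream of methylglyoxal, 0 passed and 1 had an unadjusted p under 0.05 (median -0.03 units). That gene was Pgk1, phosphoglycerate kinase, at -0.13 units with an adjusted p of 0.706, while Tpi1, whose substrates give rise to methylglyoxal, differed by 0.04 units. Of 10 receptors and effectors of glycation end products 0 passed and 0 had an unadjusted p under 0.05 (median -0.04 units), and Ager, the receptor RAGE, differed by -0.08 units.

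Of 31 listed MHC genes 29 were measured, all on chromosome 17, and 1 passed (H2-Ea). An unadjusted p under 0.05 was found for 9 of the 29 (31%), against 10.7% of chromosome 17 and 5.55% of all genes, and the difference between these shares was not tested. Of these 7 were higher and 2 lower in the high strains, and the median over the list was 0.03 units. Besides H2-Ea the higher ones were the class I genes H2-T22 (0.48), H2-T24 (0.47) and H2-T23 (0.33), the peptide loading genes H2-DMb2 (0.28) and H2-DMa (0.24), and the immunoproteasome subunit Psmb8 (0.28 units). The lower ones were H2-Q10 and H2-Q7 (-0.29 units). BXD80, a high strain, had the highest level of all BXD strains for each of the 7 higher genes. It was also the highest for H2-Q7, one of the 2 lower genes. The same held for listed genes with a larger p, among them H2-Ab1, H2-Eb1 and H2-K1. For H2-T23 the high strains had a median of 9.18 and a highest level of 10.20, against 8.90 and 9.39 in the low strains. Besides H2-Ea none of the 7 passed, with adjusted p of 0.218 to 0.860 with limma. The partner of H2-Ea in I-E, the beta chain H2-Eb1, did not go with it and differed by -0.13 units (adjusted p = 0.936 with limma). H2-Ab1, the beta chain of the other class II molecule I-A, differed by -0.22 units (adjusted p = 0.896 with limma).

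Cell type markers checked the tissue on both sides. The mean of 11 brown fat markers ran from 11.94 to 12.37 in the high and from 11.71 to 12.66 in the low strains, and Ucp1, the uncoupling protein that defines brown fat, had medians of 15.25 and 15.49. Of the 11, 9 had a lower and 2 a higher mean in the high strains, with a median difference of -0.02 units. None of the 11 had an unadjusted p under 0.05, and neither had any of 6 white fat markers, of which 3 were higher and 3 lower. In these whole tissue samples fewer cells of a type and less RNA per cell cannot be told apart. All 12 skeletal muscle markers had a higher mean in the high strains, with a median difference of 0.51 units and 0 at an unadjusted p under 0.05, and their mean level ran from 12.26 to 13.25 (median 12.63) in the high and from 9.94 to 13.55 (median 12.55) in the low strains. Acta1, the skeletal actin, had a lowest level of 14.32 in the high and 12.05 in the low strains. With the muscle marker mean as a covariate 2 probe sets passed in place of 8, Btbd9 and Paqr4, and the adjusted p was 0.0848 for Dnah8, 0.107 for H2-Ea and 0.0778 for Mir665. With the covariate the difference went from 0.336 to 0.335 units for Dnah8, from 3.75 to 3.55 for H2-Ea and from -0.317 to -0.318 for Mir665. For Btbd9 it went from 0.368 to 0.396 units.

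All 12 liver markers had a lower mean in the high strains (median -0.27 units, 0 at an unadjusted p under 0.05). Their mean level ran from 7.25 to 7.55 in the high and from 7.31 to 11.73 in the low strains, with BXD70 at the top, and 7 of the 12 were below background. Without BXD70, 7 probe sets passed, of which 6 were among the 8. All 8 macrophage markers had a higher mean in the high strains (median 0.12 units), with 0 at an unadjusted p under 0.05. Their mean level ran from 9.587 to 10.455 (median 9.913) in the high strains. In the low strains it ran from 9.176 to 10.983 (median 9.877), with BXD61 at the top. Of 5 blood markers measured 2 were above background, and 1 had an unadjusted p under 0.05, beside 5.55% of all genes. That marker was Hbb-bs (0.27 units, adjusted p = 0.653 with limma), which was below background. The part of these cell types, muscle included, in the differences was not tested.

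Leaving out 1 strain at a time gave between 2 and 18 probe sets. The count moved by more than 1.5 times without BXD80 (2), BXD103 (2), BXD56 (3), BXD68 (3), BXD99 (4) and BXD69 (5), all high strains, and without BXD87 (13), BXD79 (17), BXD98 (17) and BXD62 (18). Btbd9 and Paqr4 passed in all 35 of these fits, with adjusted p of at most 0.0146, and with Glo1 as a continuous value Btbd9 passed (adjusted p = 0.0353) and Paqr4 did not (adjusted p = 0.199). Without BXD69 and BXD101 together, the strains nearest the midpoint, the adjusted p was 0.125 for Dnah8, 0.133 for H2-Ea and 0.126 for the 9030025P20Rik probe set, and with both parents added to their sides it was 0.0753 for Mir665.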

How the data were processed

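The deposited table holds 1 score per probe set and strain, for 37 arrays and 41345 probe sets. Per the labels, the authors amplified 100 ng of pooled RNA, hybridised 5500 ng of labelled cDNA to Mouse Gene 2.0 arrays and rescaled the deposited score of each array to a mean of 8 and an SD of 2. The submitters' processing notes name Affymetrix Expression Console, and its summary method and the log base are not given in the sources used here. Because every array is rescaled alike, total RNA cannot be compared, and differences are relative to the array's mean and spread. For arrays, their number limits the precision, and pairs of arrays correlated with r from 0.968 to 0.987.

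The 190 array controls were left out. Of the 41155 probe sets kept, 28392 had a symbol in the table, which gave 24619 genes. A current RefSeq name (GRCm38.p6) was matched by 27016 probe sets and gave chromosomes and gene order. Genes without such a match kept the table's symbol and have no chromosome here, and they count among all genes. The table has no coordinates, so gene order alone was used, and 13 protein-coding genes that RefSeq puts on alternate scaffolds of chromosome 17 have no place in it. Each gene was read from the probe set with the highest BXD mean. The high and low strains were compared with limma 3.58.1 in R 4.3.3 (lmFit, eBayes, no covariate, parents left out), with Benjamini-Hochberg adjustment over the 41154 probe sets other than that of Glo1, and an adjusted p under 0.05 was called. The fit was tested on simulated data. Each strain is a pool of mice, so p-values measure the spread between strains.

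Genes were named by these rules: Glo1, its 20 protein-coding neighbours on each side, the 10 largest differences in each direction among named probe sets that passed, genes that passed on other chromosomes, and lists for methylglyoxal, glutathione, glycolysis, glycation receptors, NRF2, the MHC and cell types. The members and lists were chosen with earlier results of these data known. Alternatives were quantile normalization, median centring, leaving out dim probe sets, the methods' t-test, an adjusted p under 0.01, added parents, left-out strains, Glo1 as a continuous value, another split, a covariate for the muscle markers or for the leading principal component, averaged probe sets per gene, and neighbourhoods of 10 or 40 genes. All value columns belong to mapped strains (0 unused). The lymphocyte marker list is not reported here.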

Additional observations from a re-analysis of the deposited data

Results flagged for a closer look

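Of 46 results examined, the rule for a strain far from the others flagged a single one, H2-Ea in the high strains. Chance alone sets apart about 1 group in 20. BXD98 had a level of 8.06, while the other 7 high strains ran from 11.95 to 13.62, and the gap was 0.70 of the group's whole range. BXD98 was also the highest high strain for H2-Q10, at 13.59, with BXD80 next at 10.99. BXD98 was on the DBA/2J side for Btbd9, Dnah8 and Paqr4. Strains thus stood apart in results without a flag too, BXD98 for H2-Q10 and BXD70 for the liver markers. The liver marker mean of BXD70 was 11.73, against a median of 7.56 in the low strains. Without BXD98, 17 probe sets passed in place of 8.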

How the results depend on the processing

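The counts that passed were 8 probe sets, 2 near neighbours of Glo1, 2 farther genes of chromosome 17, 1 gene on other chromosomes and 1 listed gene. Quantile normalization (6 probe sets, all among the 8), median centring with the sides kept (7), averaged probe sets per gene (which give counts of genes only) and neighbourhoods of 10 or 40 genes left each of these counts within 1.5 times. Without dim probe sets 1 near neighbour passed. With the methods' t-test 4 probe sets, 1 farther gene and 0 listed genes passed after Benjamini-Hochberg adjustment, and 2390 probe sets had an unadjusted p under its threshold. With both parents added 5 farther genes, 0 genes on other chromosomes and 2 listed genes passed. Without BXD69 and BXD101, the strains nearest the midpoint, 5 probe sets and 1 near neighbour passed, and without BXD70 2 listed genes did. With Glo1 as a continuous value 1 near neighbour and 6 farther genes passed, of 10 probe sets that shared 4 with the 8. With the first principal component as a covariate 4 farther genes passed. With the muscle markers as a covariate, and likewise at an adjusted p under 0.01, 2 probe sets, 1 near neighbour, 1 farther gene, 0 genes on other chromosomes and 0 listed genes passed. With BXD101 moved to the high side, and with median centring and the sides set again from the centred Glo1 levels, both added after the data were seen, 1 probe set passed, on another chromosome, with 0 near neighbours, 0 farther genes and 0 listed genes. The split at the widest gap set 2 strains against 33, and 3 probe sets passed, 0 of them among the 8, with 0 near neighbours, 0 farther genes, 0 genes on other chromosomes and 0 listed genes. Under that split Zfand3 turned to -0.042 and Pim1 to 0.36 units. Leaving out 1 strain at a time gave 2 to 18 probe sets (2 without BXD80 or BXD103, 18 without BXD62), 1 to 2 near neighbours, 1 to 6 farther genes, 0 to 2 genes on other chromosomes and 0 to 2 listed genes. Btbd9 and Paqr4 passed in all 35 such fits and were lost with the split at the widest gap and with BXD101 on the high side, and Paqr4 was also lost with Glo1 as a continuous value (adjusted p = 0.199). The causes were not tested. The 8 high strains and the BXD101 and BXD62 levels near the midpoint limit every count above, and dim probe sets such as Dnah8 carry little signal over background.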
